A study of Oryza sativa with 6 samples.

Results

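The homeodomain (HOX) and WRKY transcription factor genes of rice were described in embryonic axes of artificially aged seeds. Members were chosen by name: a probe set belonged to a family when the platform annotation gave it exactly 1 gene, and that gene's symbol or a synonym began with HOX or WRKY and a digit, with or without the prefix Os. This gave 41 probe sets of 32 genes among 57258 non-control probe sets, of which 34 (26 genes) were HOX and 7 (6 genes) were WRKY. The 6 WRKY genes are those that the name table names, not the whole rice family: 34727 probe sets had no gene listed. HOX3, the 1 further HOX gene of the name table, had no probe set listed and was not analysed here. Names are given in capitals throughout.

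All samples were mature seeds of Oryza sativa cultivar Nipponbare, the reference japonica rice. Every seed lot was first held for 3 days at 25 °C and 85% relative humidity, then aged for 14 days at 85% humidity, and lastly dried for 3 days at 25 °C and 32% humidity (15 days of ageing in another field). The ageing temperature was 40 °C in 1 group (3 arrays) and 45 °C in the other (3 arrays). In the submitters' description the first temperature costs the seeds vigour and the second their ability to germinate; control seeds kept at 25 °C were not analysed here. The RNA is described as from the embryonic axis in 1 field and from embryos in another.

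Homeodomain-leucine zipper (HD-Zip) proteins are plant transcription factors that join a DNA-binding homeodomain to a zipper through which they pair, and they fall into classes. Class I members act mostly in responses to drought and abscisic acid, class II members are known from auxin and shade responses and often act as repressors, and class III members, targets of the microRNA miR166, set the polarity of leaves, vessels and the embryo. WRKY proteins carry a conserved WRKY peptide beside a zinc finger and bind W-box elements. They are best known from defence, and in cereal seeds several of them repress gibberellin responses of the aleurone, the living outer layer of the endosperm.

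The arrays differed in ways that touch every value below. The arrays at 40 and 45 °C did not overlap in the median of the 22214 tested probe sets, those that reached a mean of 4 on the log2 scale (6.45 to 6.55 at 40 °C, 6.23 to 6.25 at 45 °C). The bacterial bioB control transcripts, which are added to every sample in equal amount before hybridization and carry 9 probe sets here, averaged 7.93, 6.66 and 6.87 on the arrays at 40 °C and 8.68, 8.76 and 8.49 at 45 °C. They were thus higher on all 3 arrays at 45 °C, by a mean of 1.49 log2 units (exact two-sided permutation p = 0.1, the smallest that 3 against 3 can give). The other added controls differed less. The bioC controls were higher by 0.91 without overlap, and bioD by 0.38 and cre by 0.05 with overlapping groups. Replicate 2 at 40 °C stood apart: its correlations with the other arrays ran from 0.894 to 0.935, while replicates 1 and 3 at 40 °C correlated at 0.981. In 5 control transcript sets the 3-prime ends read higher than the 5-prime ends, a sign of RNA quality, by 2.99 log2 units on it, against 1.66 to 2.03 on the other arrays. Of 8 embryo marker genes 7 had a mean of at least 4, among them EMP1 (13.66 at 40 °C and 13.58 at 45 °C) and VP1 (9.05 and 8.89), with the root meristem gene QHB under it. The summed level of the embryo markers was 15.15 to 15.32 at 40 °C and 15.08 to 15.16 at 45 °C. Endosperm markers were also present, with 6 of 8 genes at a mean of at least 4 and a summed level of 12.18 to 12.75 at 40 °C and 12.03 to 13.15 at 45 °C. The lowest endosperm sum at 40 °C was that of replicate 2. Of these 6 endosperm genes 5 were higher at 45 °C (median log2 change 0.39), and 3 without replicate 2 at 40 °C (median -0.02). The 7 embryo genes were all lower (median -0.13), and 6 of them without that array, where 78.7% of all tested genes were lower with all arrays. For 3 aleurone genes, all with a mean of at least 4, the sum ran from 8.11 to 8.63 at 40 °C and from 7.93 to 8.24 at 45 °C. For 2 green tissue genes, of which 1 was under 4, it ran from 5.38 to 5.63 and from 3.76 to 5.77. The part of these differences in the results below was not tested.

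The comparison asks which transcripts of these regulators differ between seeds aged at the milder and at the harsher temperature. After Benjamini-Hochberg adjustment over all 22214 tested probe sets, 0 HOX probe sets had a limma p under 0.05, and 0.0% of all did. Of the 34 HOX probe sets, 19 (16 genes) were tested and 15 lay under the minimum. Among the tested ones 4 were higher and 1 was lower at 45 °C at an unadjusted limma p under 0.05. Of all tested probe sets 5.37% and 13.8% were. The 4 include a HOX19 probe set with a mean of 3.76 at 40 °C. It reached the minimum only through its 45 °C level, so its direction was fixed. The 3 arrays at 45 °C lay above all arrays at 40 °C in 5 HOX probe sets (10.8% of all tested probe sets), 1 of which reached the minimum only through its 45 °C level, and below them in 1 (17.8% of all). Without replicate 3 at 40 °C the first count was 8 (13.9% of all). The second was 2 without the first or the second array at 40 °C or the first at 45 °C (25.4%, 26.5% and 25.2% of all), and 4 without replicate 3 at 45 °C (25.1% of all). With 1 probe set per gene, the one of highest mean, 9 HOX genes were higher and 7 lower at 45 °C. HOX20, among the 9, had a mean of 3.76 at 40 °C. It passed the minimum only through its 45 °C level and was bound to be higher. The median log2 change of the HOX genes, HOX20 included, was 0.16, against -0.26 over all 11639 tested genes, a difference of 0.43. Without replicate 2 at 40 °C it was 0.04 against -0.19 over all genes, a difference of 0.24. Leaving out replicate 1 at 40 °C gave 0.08, leaving out replicate 2 at 45 °C gave 0.03, and leaving out probe sets of shared targets gave -0.17. These counts cover the genes that reached the minimum and are descriptions. In whole axes, fewer cells that hold a transcript and less of it per cell cannot be told apart.

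**Figure D1:**
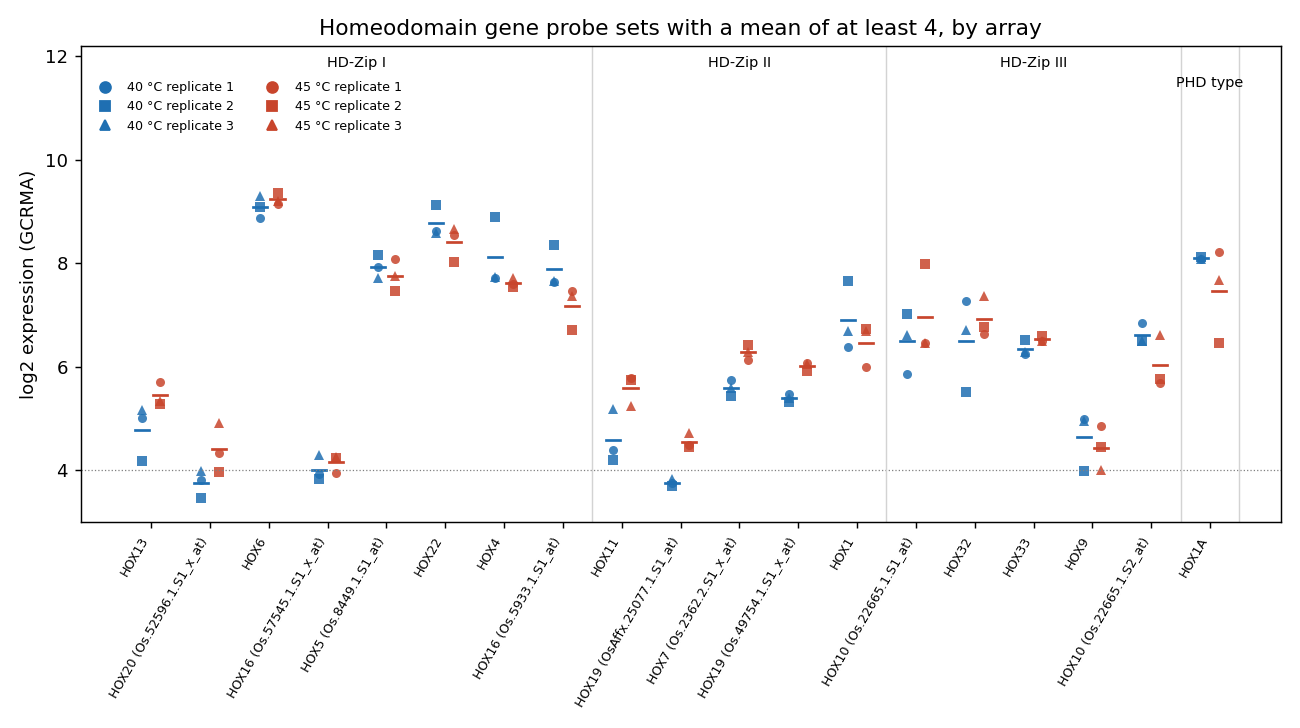
Log2 expression (y axis) of the 19 tested HOX probe sets on each array, grouped by class. Points are arrays (blue 40 °C, red 45 °C, symbol by replicate), short lines are group means and the dotted line is the minimum of 4. In class II the red points of HOX11, HOX7 and both HOX19 probe sets lie above all blue points.

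In HD-Zip class II, HOX19, HOX11 and HOX7 had probe sets with every 45 °C array above every 40 °C array, and HOX1 did not. This was so in 4 of 5 tested probe sets, or 3 of 4 without the HOX19 probe set that passed the minimum only through its 45 °C level, where 10.8% of all tested probe sets and 19.1% of those with a mean from 4 to under 6 had this order. Genes were placed in classes after their values had been seen, so the count is a description. HOX19 (LOC4332147) is measured by 3 probe sets. The tested one without a shared-target suffix in its ID read 3.75, 3.70 and 3.84 at 40 °C and 4.49, 4.45 and 4.71 at 45 °C. The arrays of each temperature lay close together and the groups were well apart. The log2 change from 40 to 45 °C was 0.79 ± 0.20 (SE), which is 1.73-fold, with a limma adjusted p of 0.173 (0.0715 to 0.359 over the alternative settings). The second HOX19 probe set, whose _x_at suffix marks probes that can also bind other transcripts, read 5.47, 5.32 and 5.39 at 40 °C and 6.07, 5.92 and 6.05 at 45 °C, a change of 0.62 ± 0.23 (SE). The third stayed just under the minimum with a mean of 3.95 and was not tested; it read 3.58, 3.65 and 3.74 against 3.98, 4.22 and 4.50. All 3 HOX19 probe sets had the 45 °C arrays above the 40 °C arrays, with changes of 0.58 to 0.79. Under the minimum, where the third lay, 72.9% of all probe sets were higher at 45 °C and 21.3% were so without overlap. The mean of the unsuffixed tested probe set at 40 °C was 3.76, under the minimum. It entered the test through its level at 45 °C, so its direction was fixed and the size of its change is uncertain.

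HOX11 (LOC4347205), also of class II, had the largest log2 change of the 41 probe sets. Its 1 probe set, which carries the _x_at suffix, read 4.39, 4.21 and 5.18 at 40 °C and 5.78, 5.76 and 5.25 at 45 °C. The groups did not overlap, but the third replicates of each temperature lay close together. The change of 1.005 ± 0.33 (SE) is 2.01-fold, with a limma adjusted p of 0.203 (0.157 to 0.359 over the alternatives). It was 0.81 to 1.30 when 1 array was left out in turn.

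HOX7 (LOC4329705) showed the same order of groups in 1 of its 2 probe sets. The _x_at probe set read 5.75, 5.44 and 5.59 at 40 °C and 6.13, 6.42 and 6.29 at 45 °C, a change of 0.69 ± 0.24 (SE), or 1.61-fold (limma adjusted p = 0.214, 0.115 to 0.389 over the alternatives). The other HOX7 probe set, under the minimum, read 3.86, 3.54 and 3.36 against 3.49, 3.64 and 3.80 and its groups overlapped, with a change of 0.06. HOX1 (LOC4349388), the class II repressor first described in rice, had the opposite sign. It read 6.38, 7.65 and 6.69 at 40 °C and 5.99, 6.73 and 6.69 at 45 °C, with overlapping groups and a change of -0.44 ± 0.39 (SE). Replicate 2 at 40 °C was the highest of these 6 values, and without it the change was -0.06. The other 4 class II genes on the array, HOX2, HOX15, HOX17 and HOX28, had means of 1.76 to 2.37, changes of 0.01 to 0.22 and overlapping groups.

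Class I held 12 genes, of which 7 were tested, and its genes lay on both sides of 0: with 1 probe set per gene, 3 were higher and 4 lower at 45 °C, and their median of -0.17 turned to 0.08 after median centring, 0.04 after cyclic loess and 0.05 after quantile normalization. The 3 higher genes include HOX20, which passed the minimum only through its 45 °C level and was bound to be higher. HOX6 (LOC4347647), HOX22 (LOC4336542) and HOX24 are known as drought-responsive genes. HOX6 read 8.88, 9.10 and 9.31 at 40 °C and 9.14, 9.36 and 9.20 at 45 °C, a change of 0.14 ± 0.17 (SE). HOX22 read 8.63, 9.12 and 8.59 against 8.56, 8.03 and 8.66, a change of -0.36 ± 0.24 (SE). Both pairs of groups overlapped, and neither change passed the limma test (adjusted p = 0.645 for HOX6 and 0.41 for HOX22). HOX24, with a mean of 2.63, was under the minimum and its groups overlapped.

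HOX16 (LOC4330610) was the HOX gene whose probe set of highest mean was lower on all arrays at 45 °C. It read 7.64, 8.35 and 7.66 at 40 °C and 7.47, 6.72 and 7.36 at 45 °C. Its change of -0.70 ± 0.30 (SE) means a 1.62-fold higher level at 40 °C (limma adjusted p = 0.258, 0.216 to 0.455 over the alternatives), and -0.46 without replicate 2 at 40 °C. The _x_at probe set of this gene, with a mean of 4.08, had a change of 0.14, and a further one under the minimum had 0.26, so that the 3 probe sets of HOX16 did not share a sign. HOX4 (LOC4347333), a class I gene that affects stem height, read 7.72, 8.89 and 7.74 against 7.60, 7.54 and 7.73. Replicate 2 at 40 °C was the highest value, and the change of -0.49 ± 0.33 (SE) was -0.11 without it. HOX5 (LOC4345576), with 7.92, 8.16 and 7.72 against 8.08, 7.46 and 7.75, had overlapping groups and a change of -0.17 that turned above 0 under each of the other scalings (cyclic loess, centring and quantiles). Its second probe set, with a mean of 2.02, also overlapped and had a change of -0.55.

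HOX13 and HOX20, like HOX6, were class I genes with a change above 0. HOX13 (LOC4331890) read 5.02, 4.17 and 5.16 at 40 °C and 5.71, 5.29 and 5.34 at 45 °C. Its groups did not overlap, and its change of 0.66 ± 0.33 (SE; limma adjusted p = 0.303, 0.211 to 0.508 over the alternatives) was 0.36 without replicate 2 at 40 °C. HOX20 (LOC4345854) had a change of 0.65 ± 0.29 (SE) in its _x_at probe set, which read 3.81, 3.46 and 3.99 against 4.34, 3.97 and 4.92 with overlapping groups. The mean of this probe set at 40 °C was 3.76, under the minimum, so it was bound to be higher. The other HOX20 probe set, with a mean of 2.69, had a change of 0.01. The class I genes under the minimum were HOX8 (3.79), HOX12 (2.20), HOX14 (2.59), HOX21 (1.39) and HOX24 (2.63), given as means over the arrays. In HOX12, which acts in panicle emergence, and in HOX21 the arrays at 45 °C all lay above those at 40 °C, by 0.28 and 0.37; among all probe sets under the minimum the share with this order was 21.3%, and 3.3% had the opposite one.

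**Figure D2:**
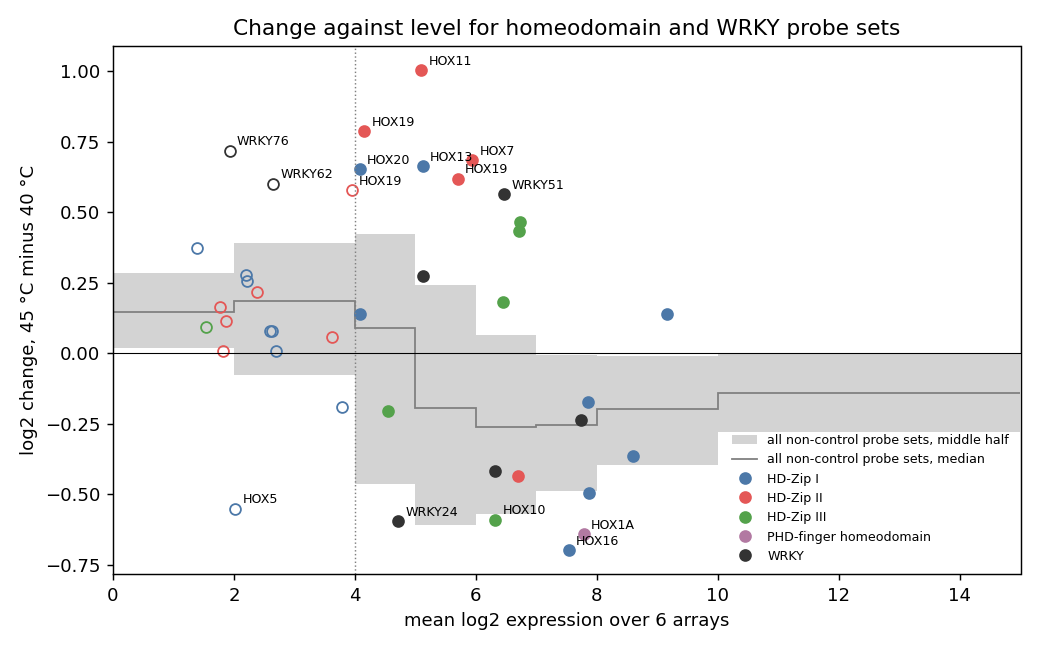
Log2 change between temperatures (y axis) against mean log2 expression over the 6 arrays (x axis) for all 41 member probe sets, coloured by class, with open circles for those under the minimum of 4. The grey line and band give the median and the quartiles of all non-control probe sets at each level. Among the points above the band are HOX11, HOX19, HOX7, HOX13 and WRKY51, and among those below it HOX16 and HOX1A.

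Change depended on level over the whole array, and the HOX probe sets are read beside that. Of all probe sets with a mean from 4 to under 6, 47.7% were higher at 45 °C and 19.1% had groups that did not overlap in that direction. Of the 8 HOX probe sets in this range 7 were higher, 5 of them without overlap. In 2 of the 7, 1 each of HOX19 and HOX20, the mean at 40 °C was under 4, so that they passed the minimum through their 45 °C level and were bound to be higher. Among the other 6 probe sets 5 were higher, 4 of them without overlap. These counts are a description and no sign of a difference from other genes. With a mean of 6 or more, 25.8% of all probe sets were higher and 4.15% were so without overlap. Of the 11 HOX probe sets there 4 were higher and 7 lower, with none higher without overlap and a median change of -0.36 against -0.21 over all. The tested class II probe sets of HOX11, HOX19 and HOX7 lay in the lower of these ranges.

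Class III genes, which pattern the vascular tissue and the shoot apex, showed no difference between the temperatures that passed the test. HOX33 (LOC4352777) read 6.24, 6.52 and 6.28 at 40 °C and 6.50, 6.59 and 6.50 at 45 °C. Its change was 0.18 ± 0.22 (SE); the arrays at 45 °C lay close together and overlapped those at 40 °C. HOX32 (LOC4333544) read 7.27, 5.52 and 6.70 against 6.64, 6.78 and 7.37, and its change of 0.43 ± 0.46 (SE) was -0.06 without replicate 2 at 40 °C, the lowest value. HOX9 (LOC4348919, also named HB2) read 4.99, 3.99 and 4.95 against 4.86, 4.46 and 4.003, a change of -0.20 ± 0.36 (SE) that became -0.53 without replicate 2 at 40 °C. It was above 0 after median centring and without replicate 3 at 45 °C. HOX29, the remaining member, had a mean of 1.53 and overlapping groups.

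HOX10 (LOC4331345, also named HB1) is the class III gene with probe sets that disagree. The first probe set read 5.87, 7.01 and 6.62 at 40 °C and 6.46, 7.99 and 6.46 at 45 °C, a change of 0.47 ± 0.49 (SE) that was -0.04 without replicate 2 at 45 °C. The second read 6.85, 6.51 and 6.50 against 5.69, 5.76 and 6.62, a change of -0.59 ± 0.32 (SE). The groups overlapped in both, and on replicate 2 at 45 °C the first was at its highest while the second was near its lowest. HOX1A (LOC4340565, also named HAZ1), which encodes a homeodomain protein with a PHD finger and no zipper, read 8.09, 8.13 and 8.09 at 40 °C and 8.23, 6.46 and 7.68 at 45 °C. The arrays at 40 °C were nearly equal and those at 45 °C were far apart (SD 0.90, n = 3), so that the groups overlapped. Its change of -0.64 ± 0.41 (SE) was -0.14 without replicate 2 at 45 °C.

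**Figure D3:**
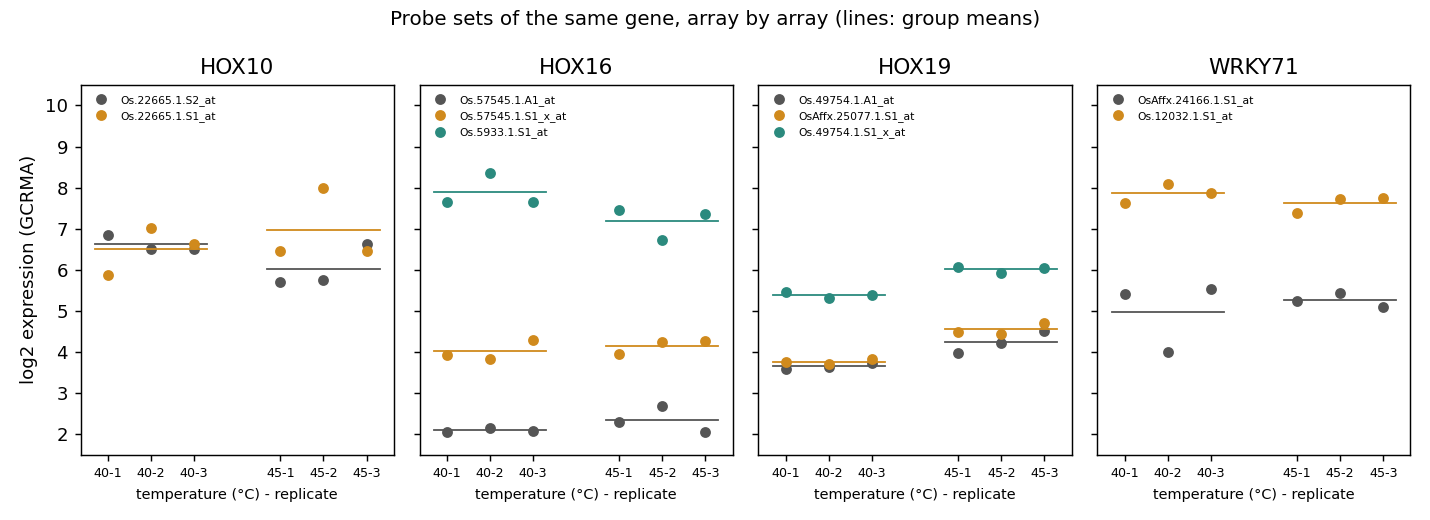
Log2 expression (y axis) on each array (x axis) for 4 genes with more than 1 probe set, with lines at the group means. The 3 probe sets of HOX19 are all higher at 45 °C, whereas those of HOX10, HOX16 and WRKY71 do not share a direction. Of the HOX19 probe sets, 1 passed the minimum only through its 45 °C level and 1 lay under it.

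Of the 7 member genes with several probe sets, 3 (HOX10, HOX16 and WRKY71) had probe sets of opposite sign. Among tested HOX probe sets 5 of 5 with the _x_at suffix and 6 of 14 without it were higher at 45 °C. The _x_at probe set of HOX16 turned below 0 with array weights and after cyclic loess. That of HOX20 and the unsuffixed tested one of HOX19 passed the minimum only through their 45 °C levels and were bound to be higher. Suffix and level ran together: all 5 with the suffix had means from 4 to under 6, and 11 of the 14 had means of 6 or more. Over the whole array 62.0% of _x_at probe sets with a mean from 4 to under 6 were higher, and 44.3% of the others at that level. The part of probes that bind several transcripts in this was not tested.

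The WRKY family was measured by few probe sets, and none of them passed the limma test (0 of 5 tested; smallest adjusted p 0.323, 0.167 to 0.459 over the alternatives). None of the 5 had an unadjusted limma p under 0.05 (19.2% of all tested probe sets), and none had groups that did not overlap; the background is 10.8% higher and 17.8% lower. With 1 probe set per gene, 1 of 4 tested genes was higher and 3 were lower at 45 °C (2 and 2 after median centring). The median change was -0.33, -0.06 from that over all tested genes. Without the minimum, which brings in WRKY62 and WRKY76, it was 0.16.

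WRKY71 (LOC4328512) and WRKY51 (LOC4335388) are known to act together in rice aleurone cells, where they repress gibberellin-induced amylase genes. The brighter WRKY71 probe set read 7.63, 8.08 and 7.87 at 40 °C and 7.39, 7.71 and 7.76 at 45 °C. Its change of -0.24 ± 0.21 (SE) lay close to the median change of -0.25 of all probe sets with a mean between 7 and 8, and was 0.02 after median centring. The second WRKY71 probe set read 5.42, 4.01 and 5.53 against 5.24, 5.43 and 5.10. Its change of 0.27 ± 0.42 (SE) turned to -0.22 without replicate 2 at 40 °C, the 1 low value of the 6. WRKY51 read 6.42, 5.47 and 6.66 at 40 °C and 7.02, 6.51 and 6.70 at 45 °C. The groups overlapped, with the lowest value again on replicate 2 at 40 °C, and the change of 0.56 ± 0.35 (SE) was 0.21 without that array (limma adjusted p = 0.394, 0.274 to 0.680 over the alternatives). The difference between WRKY51 and WRKY71 in direction was not tested.

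WRKY24 (LOC4327518), a further repressor of gibberellin and abscisic acid responses in aleurone cells, read 4.52, 5.31 and 5.20 at 40 °C and 4.34, 4.10 and 4.80 at 45 °C. Its groups overlapped, and its change was -0.60 ± 0.31 (SE; limma adjusted p = 0.323, 0.237 to 0.589 over the alternatives). Leaving out 1 array in turn gave -0.84 to -0.44. WRKY9 (LOC4343736) read 6.83, 5.53 and 7.23 against 5.61, 6.50 and 6.22. Its change of -0.42 ± 0.47 (SE) became -0.92 without replicate 2 at 40 °C, and its groups then did not overlap (26.5% of all tested probe sets were lower in this way without that array).

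WRKY62 (LOC4347070, also named XB10), a partner of the immune receptor XA21, and WRKY76 (LOC4347069), both known as negative regulators of rice immunity, lay under the minimum and were not tested. WRKY62 read 2.23, 2.41 and 2.41 at 40 °C and 3.12, 2.96 and 2.76 at 45 °C. WRKY76 read 1.55, 1.42 and 1.75 against 2.23, 2.03 and 2.61. In both, all arrays at 45 °C lay above all arrays at 40 °C, by 0.60 and 0.72. At this level 72.9% of all probe sets were higher at 45 °C, 21.3% without overlap, and the middle of their changes was 0.17, so the sizes at this level are uncertain.

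**Figure D4:**
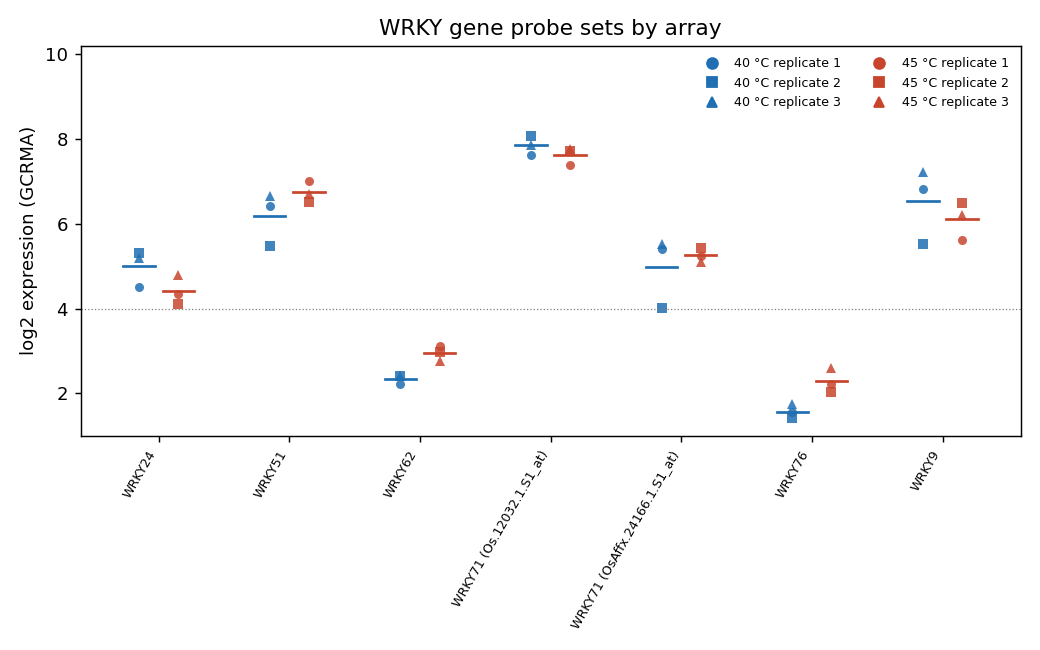
Log2 expression (y axis) of the 7 WRKY probe sets on each array. Points are arrays (blue 40 °C, red 45 °C, symbol by replicate), short lines are group means and the dotted line is the minimum of 4; WRKY62 and WRKY76 lie under it, and replicate 2 at 40 °C (blue square) is the lowest point of WRKY51, WRKY9 and the second WRKY71 probe set.

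**Figure D5:**
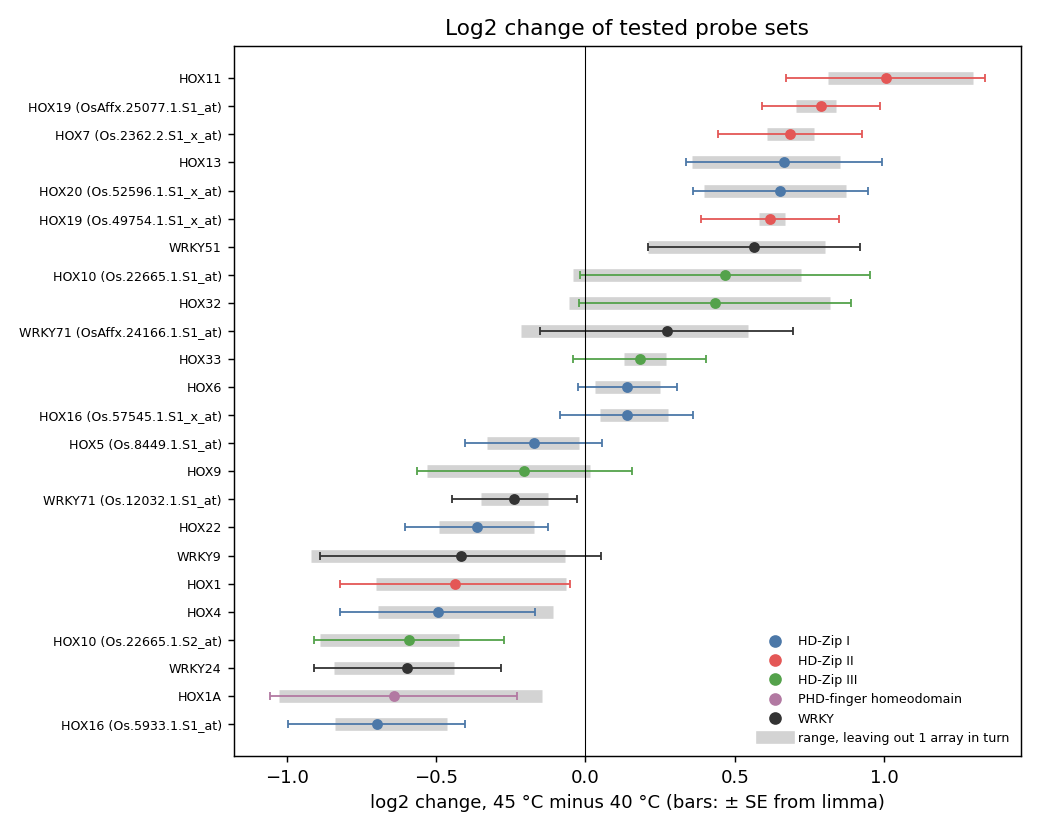
Log2 change between temperatures (x axis) of the 24 tested member probe sets, with limma standard errors as bars and the range obtained by leaving out 1 array in turn in grey. The grey ranges of HOX19 are short (0.58 to 0.67 for the _x_at probe set, 0.71 to 0.84 for the unsuffixed one). The unsuffixed one passed the minimum only through its level at the higher temperature. Its direction was therefore fixed, and its short range says nothing on that direction. The grey ranges of 4 probe sets, of HOX10, HOX32, HOX9 and WRKY71, cross 0.

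Replicate 2 at 40 °C was the lowest or highest of its group in 82.5% of all tested probe sets, against 63.1% for replicate 1 and 54.4% for replicate 3. Among the 3 arrays at 40 °C it held the lowest value in 9 and the highest in 8 of the 19 tested HOX probe sets, and the lowest in 3 and the highest in 2 of the 5 tested WRKY probe sets. The changes of HOX19, HOX7, HOX11 and HOX16 kept their sign without it (HOX7 at 0.61, the _x_at probe set of HOX19 at 0.58), and no HOX or WRKY probe set passed the adjusted threshold without it, although 69 of all probe sets did.

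Homeobox genes outside the HOX names were lower at 45 °C about as often as all genes. Of 15 tested genes of the KNOX, WOX, ROC, ZHD and HOS groups 12 were lower and 3 higher, where 78.7% of all tested genes were lower, with a median of -0.30 (-0.05 after median centring), and 0 of 16 tested probe sets passed the limma test after adjustment (0 higher and 3 lower at an unadjusted p under 0.05, where 5.37% and 13.8% of all were). HOS58 read 9.44, 9.87 and 9.17 at 40 °C and 8.66, 8.80 and 8.76 at 45 °C, without overlap. Of all probe sets with a mean from 8 to under 10, 24.2% were lower in this way. The change of HOS58 was -0.76 ± 0.20 (SE, limma adjusted p = 0.177). ROC1, an epidermis-specific homeobox gene, had a change of -1.01, with a mean of 3.94 at 45 °C. It passed the minimum only through its 40 °C level and was bound to be lower. It is counted among the 12 lower genes and the 3 lower probe sets. The meristem gene OSH1 had -0.92 in 1 probe set and 0.06 in the other. Among regulators of abscisic acid responses in seeds, 0 of 3 passed, with or without adjustment of the limma p: VP1 had a change of -0.16, TRAB1 of -0.17 and ABF2 of 0.03, and all 3 were above 0 after median centring.

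Genes that act beside WRKY factors in defence showed no change past the threshold either. Of 16 tested genes of kinase cascades and NPR1-type regulators 14 were lower and 2 higher at 45 °C, beside 78.7% lower over all genes; their median of -0.24 was 0.02 after median centring. Of their 18 probe sets, 0 were higher and 1 was lower at an unadjusted limma p under 0.05 (5.37% and 13.8% of all). The kinase kinase gene MAPKK1 had 9.23 at 40 °C and 8.97 at 45 °C, with no overlap. Its change of -0.26 was that of the median over all tested genes. It was among 3 of the 18 probe sets that were lower without overlap, as 17.8% of all tested probe sets were. Of all probe sets with a mean from 8 to under 10, 24.2% had this order. NH1, the rice NPR1 gene and a central regulator of salicylic acid defence, had means of 4.05 and 2.83. It was lower on all arrays at 45 °C, as were 3.3% of all probe sets under the minimum. NH1 lay under the minimum and was not tested. Of 20 probe sets of chitinase, PR and diterpene synthase genes 15 lay under the minimum, not counting NH1, which a synonym also places among the PR genes; 0 of the 5 tested passed, with or without adjustment, among them PBZ1 with a change of -0.22.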

How the data were processed

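Each probe set of the Affymetrix Rice Genome Array has 1 deposited log2 value per array. The submitters' processing notes name GCRMA, without a version, as the tool by which the authors summarised probes into these log2 values. The range of non-control values, 0.563 to 14.02, fits a log2 scale. The labels give 50 ng of total RNA, amplified and labelled with biotin. Genes were named from the platform annotation and the name table of assembly ASM3414082v1, without coordinates; all 17905 annotated genes were found there.

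Probe sets with a mean of at least 4 were compared by limma (3.58.1, under R 4.3.3; lmFit, then eBayes with intensity trend, temperature as the only term, two-sided, Benjamini-Hochberg at 0.05 over 22214 probe sets), after a test on simulated data. Whether the replicates of a temperature are separate lots of seed is not labelled: p-values then rest on a spread that may be technical. The number of arrays limits precision: in the simulated data 10.1% of changes of 1 log2 unit passed the threshold, and 57.1% of changes of 2. The members and lists were chosen with earlier results of these data known. Named genes were, per family, the 5 of highest mean, the 6 of smallest p in each direction and a list of known members; the text gives others by range. HD-Zip classes come from general knowledge of the family and were assigned after values had been seen. A histone and an actin gene, caught by name alone, were left out of the other lists. Equal replicate numbers at the 2 temperatures did not pair the samples (correlations of deviations from group means 0.03, -0.14 and -0.04). No array pair shared more than 0.875% identical values. Alternatives were other minimums, scalings, weights, a replicate block and leaving out each array. HOX counts without probe sets whose mean at 40 °C was under 4 were added after seeing the data.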

Additional observations from a re-analysis of the deposited data

How the results depend on the processing

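No HOX or WRKY probe set passed the adjusted threshold under any alternative run, while over all probe sets 193 passed with array weights and 0 to 69 when 1 array was left out (69 without replicate 2 at 40 °C). With the replicate number as a block 0 passed (smallest adjusted p 0.283), and no other call changed. The HOX median change was 0.35 after cyclic loess, 0.42 after median centring and 0.39 after quantile normalization. Over all tested genes the medians were -0.097, -0.0078 and -0.071. The differences were 0.45, 0.43 and 0.46, against 0.43 in the main run. Median centring moves every change by the same amount, so its difference equals that of the main run by construction. The HOX median was -0.27 with a minimum of 6 and -0.17 without probe sets of shared targets. These runs hold 10 and 13 HOX genes instead of 16, and no median over all genes is given for them. Of 24 tested probe sets 17 kept their sign under every alternative run. The _x_at probe set of HOX16 was at -0.0073 with array weights and -0.030 after cyclic loess. HOX5 was at 0.040 after cyclic loess, 0.083 after median centring and 0.047 after quantile normalization. After median centring HOX9 was at 0.052 and the first WRKY71 probe set at 0.018; with array weights the second was at -0.16. Leaving out 1 array gave -0.043 to 0.72 for HOX10, -0.056 to 0.82 for HOX32, -0.53 to 0.015 for HOX9 and -0.22 to 0.54 for the second WRKY71 probe set. Non-overlapping counts, left out in turn after seeing the data, were 5 to 8 higher and 1 to 4 lower for HOX, and 0 to 1 higher and 0 to 2 lower for WRKY (13.2 to 14.3% higher and 22.1 to 26.5% lower over all tested probe sets). Median centring takes the difference of -0.26 between the groups in the median of tested probe sets out of every change. Apart from that fixed shift, the cause of the differences between runs was not tested. No detection calls were used, so signal over background limits statements on probe sets under the minimum.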
